A study of Mus musculus with 9 samples.

Results

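Cholesterol synthesis and its control were described through 7 genes, *Srebf2*, *Insig1*, *Hmgcs1*, *Idi1*, *Fdft1*, *Sqle* and *Lss*, which were given as a list of symbols and matched by Ensembl mouse gene identifier to the deposited expression values. All 7 were found among 54838 genes, each under 1 identifier, and all 7 were among the 12702 genes tested, those with at least 1 FPKM (fragments per kilobase of transcript, scaled to the mapped fragments of the library) in at least 2 libraries. The working name of the list also mentions uptake, but none of the 7 genes encodes an uptake protein: 5 encode enzymes of sterol synthesis and the other two encode control proteins. Cholesterol uptake is therefore described mainly through a neighbouring gene, *Npc1l1*, that does not belong to the list.

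The libraries were bulk RNA-seq of small intestinal organoids, which are self-organising cultures of intestinal epithelium grown from crypts. Every organoid, the controls included, carried Vil-CreERT2 and Mettl3 fl/fl on a C57BL/6 background, and came from male donors of 2 to 4 months. METTL3 is the catalytic subunit of the complex that writes the mRNA mark m6A. The Cre recombinase is driven by the villin promoter, which is active in intestinal epithelium, and 4-OHT (4-hydroxytamoxifen) switches it on so that it excises the floxed part of *Mettl3*. Organoids received either the solvent ethanol (EtOH) or 500 nM 4-OHT for 2 days, together with DMSO or necrostatin-1 (Nec-1), an inhibitor of the cell death kinase RIPK1, for 5 days. There were 2 libraries of organoids given EtOH with DMSO, 2 given EtOH with Nec-1, 2 given 4-OHT with DMSO and 1 given 4-OHT with Nec-1. No organoids without Cre received 4-OHT, so the agent and the deletion cannot be told apart. Nothing in the sources used here says whether the 2 libraries of a group came from separate cultures or mice, and the p-values measure only the spread between these libraries.

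Cells make cholesterol from acetyl-CoA through mevalonate, isoprenoid units, squalene and lanosterol. The genes of this route are switched on together by SREBP2, the product of *Srebf2*, a membrane-bound transcription factor that its partner SCAP carries from the endoplasmic reticulum to the Golgi to be cut free when sterols are scarce. When sterols are plentiful, INSIG proteins hold SCAP and SREBP2 in the endoplasmic reticulum, and *Insig1* is itself an SREBP target. The small intestine both makes cholesterol and absorbs it from the gut lumen, where the transporter NPC1L1 takes it up at the enterocyte brush border and ABCG5 with ABCG8 pumps sterols back out.

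Because SREBP2 and the cofactor NF-Y are known to act at promoters of this route, stretches of the members' promoters are shown for the sequences that these factors recognise. RefSeq promoter windows (build GRCm38.p6, 300 bases, most of them before the start site) matched 5 of the 7 members, and *Sqle* and *Fdft1* were not matched. The stretches below are on the + strand, 5′ to 3′, and capitals mark matches to the NF-Y box CCAAT (read as ATTGG on this strand) or to the sterol element letters TCACNCCAC or TCACNCCA. They span chr15:82147099-82147178 for *Srebf2*, chr5:28071172-28071251 for *Insig1*, chr13:119690151-119690240 for *Hmgcs1*, chr13:8885526-8885605 for *Idi1* and chr10:76531505-76531584 for *Lss*.
Srebf2: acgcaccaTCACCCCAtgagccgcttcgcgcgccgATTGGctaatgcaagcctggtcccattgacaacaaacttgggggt
Insig1: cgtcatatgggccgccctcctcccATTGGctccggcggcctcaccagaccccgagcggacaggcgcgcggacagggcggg
Hmgcs1: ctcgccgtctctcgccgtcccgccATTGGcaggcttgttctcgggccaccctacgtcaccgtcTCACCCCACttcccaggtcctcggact
Idi1: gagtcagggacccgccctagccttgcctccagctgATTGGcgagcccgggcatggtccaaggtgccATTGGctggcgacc
Lss: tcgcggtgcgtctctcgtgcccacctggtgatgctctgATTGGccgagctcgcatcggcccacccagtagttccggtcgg

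Both strands of each window were searched. CCAAT occurred in 5 of 5 matched members and in 12 of 13 matched promoters of other enzymes of the route, against 37.4% of all 32851 promoters. In every matched member the box lay in the reverse orientation, at -135 bases from the start site in *Srebf2*, -216 in *Insig1*, -62 in *Lss* and at -45 and -14 in *Idi1*, while *Hmgcs1* held 4 boxes. The full letters TCACNCCAC were found in 1 of 5 members, *Hmgcs1*, at -137, in 0 of 13 other enzymes and in 1.24% of all promoters. The shorter form CACNCCAC, which lies inside the full one, was in 2 of 5 members, *Hmgcs1* and *Insig1* (at -9, outside the stretch shown), in 1 of 13 other enzymes and in 6.24% of all promoters. TCACNCCA, which also lies inside the full form and was chosen after these sequences had been seen, was in *Hmgcs1* and in *Srebf2* at -162, in 1 of 13 other enzymes and in 4.36% of all promoters. A match describes letters and no binding was measured.

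The targeted gene, *Mettl3*, did not fall with 4-OHT. EtOH libraries held 2.70 and 2.71 FPKM of it with DMSO and 2.41 and 2.47 with Nec-1, and libraries labelled 4-OHT held 3.72 and 4.14 with DMSO and 3.36 with Nec-1. The log2 difference between 4-OHT DMSO and EtOH DMSO was 0.41 (limma adjusted p = 0.0231), and 0.25 (adjusted p = 0.0796) with every library centred on its median, and it did not pass when any 1 EtOH library or the second 4-OHT DMSO library was left out (adjusted p = 0.0587 to 0.0914). The values cover the whole gene, so the excision cannot be read from them, and directions between EtOH and 4-OHT rest on the labels. FPKM summed to 450207 to 498712 per library. The depth behind single values is unknown, because fragment counts were not used here. *Epcam* and *Vil1* were at 431 to 609 and 102 to 159 FPKM, as epithelial markers, and 5 fibroblast markers summed to at most 0.137 FPKM. The lactase gene *Lct*, an enterocyte marker, stayed at or under 0.383 FPKM in every library.

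In organoids labelled 4-OHT DMSO, most of the 7 transcripts were less abundant than in EtOH DMSO. The question here is what 4-OHT, and with it the intended loss of *Mettl3*, does to these genes without the inhibitor. Of the 7 members, 6 fell, by 0.32 to 1.24 on the log2(FPKM + 1) scale, and the seventh, *Fdft1*, did not pass the test. Among all 12702 genes 16.7% were called lower and 24.5% higher (limma, Benjamini-Hochberg adjusted p under 0.05). The median log2 difference of the members was -0.71, beside 0.077 over all genes tested.

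**Figure D1:**
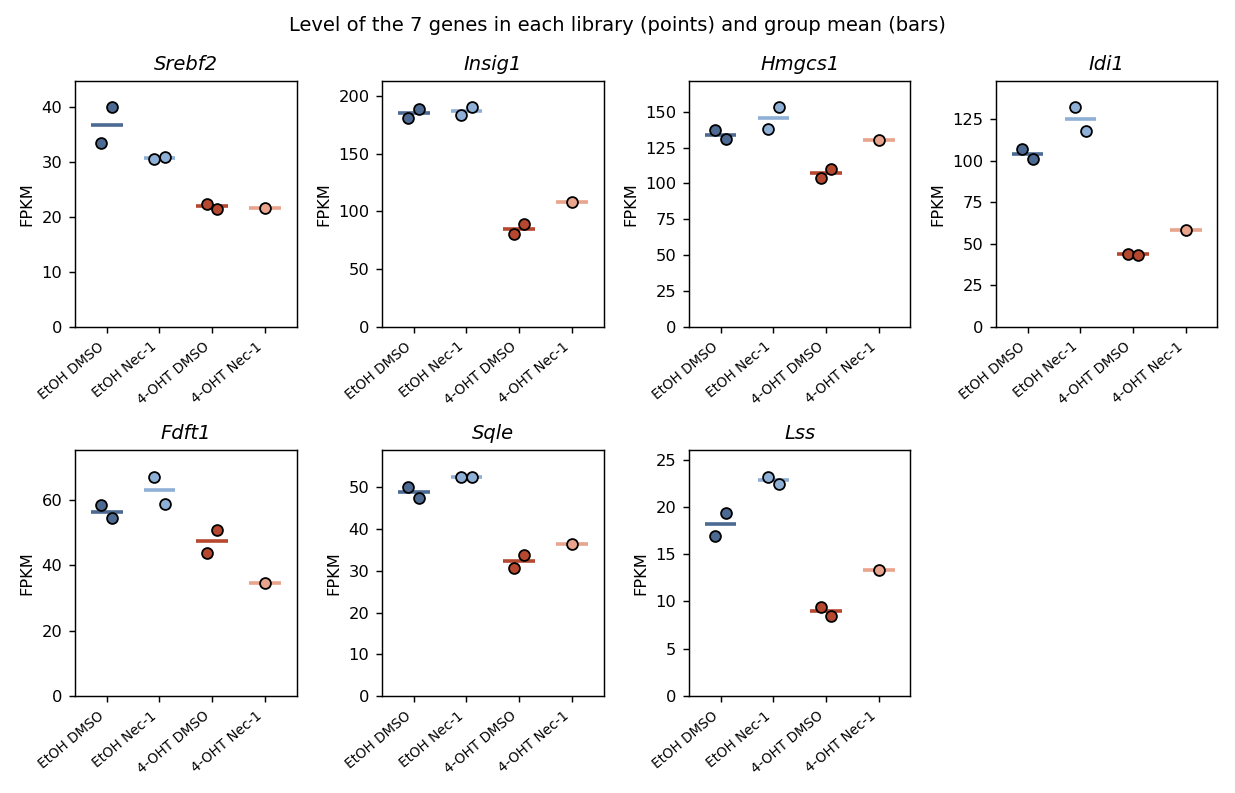
Level of each of the 7 genes (FPKM, linear axis from 0) in each library (points) with the mean of each of the 4 groups (bars). For every gene both 4-OHT DMSO points lie under both EtOH DMSO points, as for 30.8% of all genes tested, and the *Idi1* points fall from 101 and 107 to 43.2 and 43.9 FPKM.

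*Srebf2* (ENSMUSG00000022463), which encodes the transcription factor of the route, was at 33.4 and 39.9 FPKM in EtOH DMSO and at 22.4 and 21.5 in 4-OHT DMSO. The groups did not overlap, although the EtOH DMSO libraries lay further apart than any other pair for this gene. The log2 difference was -0.71 (standard error 0.10, limma adjusted p = 0.00502), which leaves 0.612 of the EtOH level on the FPKM + 1 scale.

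*Insig1* (ENSMUSG00000045294), the retention protein that is also a target of SREBP, was the most abundant member in EtOH DMSO, at 181 and 189 FPKM. In 4-OHT DMSO it was at 80.7 and 89.2, far below both. The log2 difference was -1.11 (standard error 0.086, limma adjusted p = 8.51e-04).

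*Hmgcs1* (ENSMUSG00000093930) encodes the cytosolic HMG-CoA synthase, which acts at the entry to the mevalonate pathway. Its levels were 137 and 131 FPKM in EtOH DMSO and 104 and 110 in 4-OHT DMSO, so the groups were apart but by little. The log2 difference was -0.32 (standard error 0.086, limma adjusted p = 0.0323), the smallest among the members that passed. This call was lost in 8 of 16 alternative fits, among them the removal of either EtOH DMSO library, either EtOH Nec-1 library or the first 4-OHT DMSO library, with adjusted p between 0.00727 and 0.103 over all of them.

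*Idi1* (ENSMUSG00000058258) encodes the isomerase that interconverts the isoprenoid units from which squalene is built. It showed the largest log2 difference among the members, from 107 and 101 FPKM in EtOH DMSO to 43.9 and 43.2 in 4-OHT DMSO. Both groups were tight and lay far apart. The log2 difference was -1.24 (standard error 0.088, limma adjusted p = 6.97e-04).

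*Fdft1* (ENSMUSG00000021273), the squalene synthase gene, was at 58.3 and 54.5 FPKM in EtOH DMSO and at 43.7 and 50.8 in 4-OHT DMSO. Both 4-OHT DMSO libraries lay below both EtOH DMSO libraries, but the 4-OHT DMSO libraries differed from each other more than the upper one differed from the nearer EtOH DMSO library. The log2 difference of -0.25 (95% interval -0.54 to 0.031, limma adjusted p = 0.129) did not pass. It passed with each library centred on its median (adjusted p = 0.0466) and with upper quartile scaling (adjusted p = 0.0358).

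*Sqle* (ENSMUSG00000022351) encodes squalene epoxidase, which starts the oxygen-dependent steps that lead from squalene to sterols. It was at 50.1 and 47.5 FPKM in EtOH DMSO and at 30.8 and 33.8 in 4-OHT DMSO, with a clear gap between the groups. The log2 difference was -0.58 (standard error 0.082, limma adjusted p = 0.00439).

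*Lss* (ENSMUSG00000033105) encodes lanosterol synthase, which closes the sterol rings, and was the least abundant member. Its levels were 16.9 and 19.4 FPKM in EtOH DMSO and 9.42 and 8.51 in 4-OHT DMSO, so the groups were well apart. The log2 difference was -0.94 (standard error 0.10, limma adjusted p = 0.00206).

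The members thus differed in size of change as well as in level. In EtOH DMSO the order of mean FPKM was *Insig1* at 185, *Hmgcs1* at 134, *Idi1* at 104, *Fdft1* at 56.4, *Sqle* at 48.8, *Srebf2* at 36.7 and *Lss* at 18.1, and the libraries of neighbouring genes in this order did not overlap. In 4-OHT DMSO *Hmgcs1* was the highest at 107, above *Insig1* at 85.0. *Fdft1* at 47.3 ± 5.07 (SD, n = 2) and *Idi1* at 43.5 ± 0.523 (SD, n = 2) were then so close that the lowest *Fdft1* library was under the highest *Idi1* library. The intervals of the log2 differences did not overlap between the group of *Idi1* and *Insig1* and the group of *Hmgcs1* and *Fdft1*, a comparison of intervals and not a test of the difference between genes.

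Centring every library on its median moved every log2 difference between these groups by -0.16, and the split over all genes changed from 3117 higher and 2120 lower to 2213 higher and 3187 lower. With it, and with upper quartile scaling, all 7 members were lower. *Srebf2*, *Insig1*, *Idi1*, *Sqle* and *Lss* had an adjusted p under 0.05 in 16 of 16 alternative fits. A criterion that asks for a fold change (an unadjusted p under 0.05 and at least 1 log2 unit) was met by 2 members, *Insig1* and *Idi1*.

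Markers of epithelial cell types moved between the same groups. Summed FPKM of 7 enterocyte markers was 1250 to 1320 in EtOH DMSO and 994 to 1050 in 4-OHT DMSO, and *Alpi* and *Sis*, which encode brush border enzymes, were at 76.0 and 78.1 against 22.3 and 30.3, and at 279 and 305 against 106 and 118. Of the same 7 markers *Fabp2* also fell (log2 difference -0.45), *Apoa1* rose from 199 and 183 to 293 and 291 FPKM (log2 difference 0.61, limma adjusted p = 0.00548), *Fabp1* (-0.32) and *Apoa4* (0.042) did not pass and *Lct* was too low to test. The sum of 4 Paneth cell markers was 1500 to 1720 in EtOH DMSO and 4100 to 4180 in 4-OHT DMSO, that of 4 goblet cell markers 1080 to 1150 and 1480 to 1650, that of 3 enteroendocrine markers 152 to 163 and 299 to 358, and that of 4 stem cell markers 36.8 to 40.4 and 15.4 to 22.4. Summed FPKM of 8 proliferation genes was 197 to 210 and 164 to 188, with *Birc5* higher and *Pcna* and *Top2a* lower of the 8, and *Pcna* and *Top2a* lost their calls when some single libraries were left out (adjusted p = 0.0516 to 0.121). Of 5 immune markers, which summed to 0.849 to 2.12 and 6.21 to 7.81, nearly all came from *Cd68*, while *Ptprc* stayed at or under 0.0497 and *Cd3e* at or under 0.0892 FPKM. The 3 hepatocyte markers summed to 12.7 to 21.7 in all libraries. The part of these shifts in the fall of the members was not tested, and in bulk samples fewer cells of a type and less RNA per cell cannot be told apart.

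The rest of the sterol route was more mixed than the members, a contrast that was not tested. Members and lists were chosen with earlier results of these data known. Over all genes 16.7% were called lower and 24.5% higher. Of 14 other enzymes, 6 fell (*Acat2*, *Mvd*, *Fdps*, *Cyp51*, *Lbr* and *Sc5d*), 1 rose and 7 did not pass, with a median log2 difference of -0.28. *Mvd*, the enzyme just before *Idi1* in the route, was at 67.7 and 65.6 FPKM in EtOH DMSO and 35.8 and 33.8 in 4-OHT DMSO (log2 difference -0.92, limma adjusted p = 9.42e-04). *Acat2*, which makes acetoacetyl-CoA for the first step, fell by 0.72 (adjusted p = 0.041), and *Lbr*, a sterol reductase that is also a nuclear envelope protein, by 0.58 (adjusted p = 0.00394). The single gene that rose, *Hsd17b7*, by 0.28 (adjusted p = 0.0398), no longer passed with centring or upper quartile scaling, and *Dhcr7* then passed as lower. *Sc5d* fell by 0.31 and only just passed (limma adjusted p = 0.0497). Its call and that of *Hsd17b7* were lost when any 1 of the 6 libraries other than 4-OHT Nec-1 was left out. With 1 library left out, 4 to 6 enzymes fell, *Mvd*, *Fdps*, *Cyp51* and *Lbr* each time, while *Acat2* lost its call when any 1 of the 4 libraries compared was left out (adjusted p = 0.0579 to 0.163). The early kinases *Mvk* and *Pmvk* had log2 differences of 0.25 (adjusted p = 0.123) and 0.14 (adjusted p = 0.155).

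**Figure D2:**
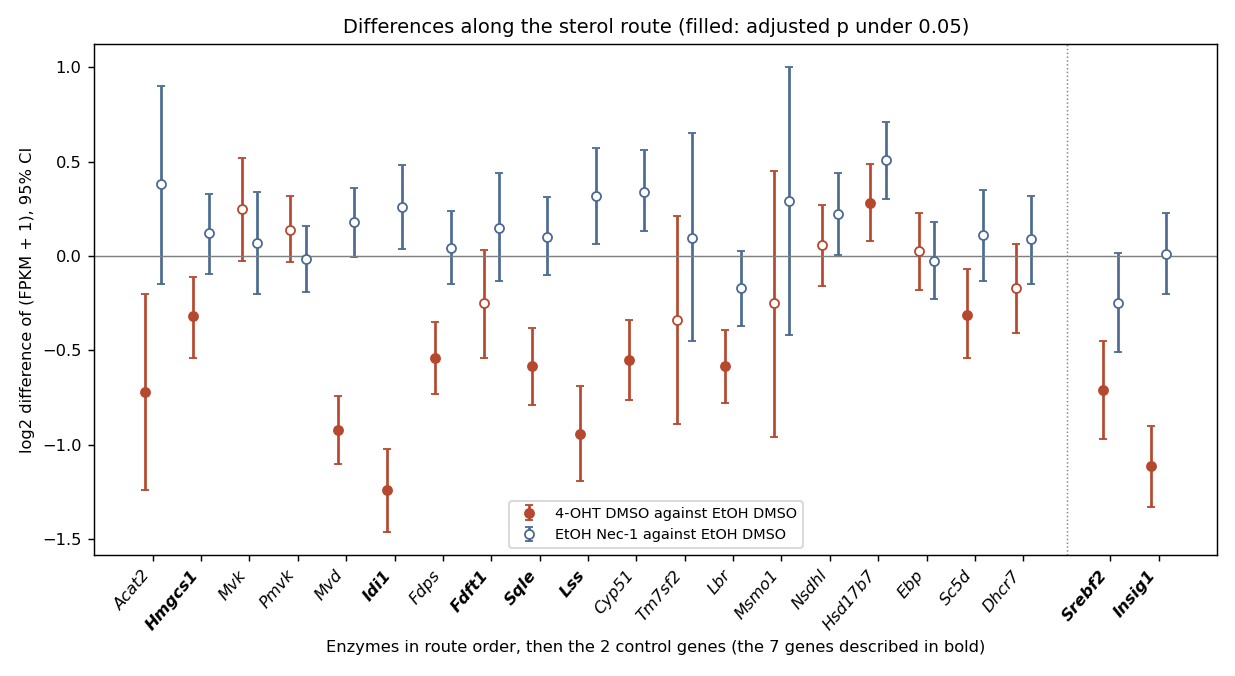
Log2 difference of (FPKM + 1) with its 95% interval (vertical axis) for enzymes in the order of the sterol route, then *Srebf2* and *Insig1* (horizontal axis), for 4-OHT DMSO and for EtOH Nec-1, each against EtOH DMSO; filled points have an adjusted p under 0.05 and names of the 7 members are bold. The members lie between -1.24 and -0.25 in the first comparison and between -0.25 and 0.32 in the second, where no point is filled.

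Of 5 further genes of SREBP control, 2 rose and 1 fell, beside 24.5% of all genes called higher and 16.7% called lower. *Scap*, the escort protein of SREBP2, was at 3.31 and 3.65 FPKM in EtOH DMSO and at 5.56 and 5.65 in 4-OHT DMSO (log2 difference 0.56, limma adjusted p = 0.00837). *Mbtps2*, which encodes a protease that cuts SREBP free, rose by 0.45 (adjusted p = 0.0192), a call that was lost with either other scaling and when any 1 of the 4 libraries compared was left out (adjusted p = 0.0509 to 0.0688). *Srebf1*, whose SREBP1 proteins act mainly on fatty acid genes, fell by 0.31 (adjusted p = 0.0369), a call lost when any 1 of the 6 libraries other than 4-OHT Nec-1 was left out (adjusted p = 0.0691 to 0.105). The retention gene *Insig2* was at 8.08 and 8.47 against 9.32 and 12.1 FPKM (log2 difference 0.33, adjusted p = 0.106), a value of the other sign than that of *Insig1*.

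Sterol uptake, transport and storage genes went both ways. *Npc1l1*, the intestinal cholesterol importer, was added after its values had been seen. It was at 62.7 and 74.3 FPKM in EtOH DMSO and at 21.6 and 26.7 in 4-OHT DMSO, with a log2 difference of -1.47 (standard error 0.14, limma adjusted p = 0.00136) that was larger in size than that of any member. Of 8 transport and storage genes, 3 fell and 2 rose, beside 16.7% of all genes called lower and 24.5% called higher. With centring 5 fell and 1 rose, beside 3187 lower and 2213 higher among all 12702 genes tested. The cytosolic cholesterol carrier *Stard4* fell by 0.97 (adjusted p = 0.00109), from 76.6 and 83.8 to 41.5 and 39.1 FPKM, and *Soat1*, which esterifies cholesterol for storage, by 0.59 (adjusted p = 0.00428), from 10.3 and 11.1 to 6.67 and 6.86. *Lipa*, the lysosomal acid lipase, rose by 0.70 (adjusted p = 0.00365). *Scarb1* of the same list had a smaller log2 difference than *Npc1l1*, -0.25, and did not pass (limma adjusted p = 0.0917). It passed as lower with centring and with upper quartile scaling.

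Between 4-OHT DMSO and EtOH DMSO, 16.7% of all genes were called lower and 24.5% higher, and whether a list differs from these shares was not tested. The isoprenoid branch that leaves the route before squalene and makes coenzyme Q, dolichol and prenyl groups held no gene that fell. Of its 7 genes, *Pdss2* rose by 0.71 (limma adjusted p = 0.00917) and *Nus1* by 0.37 (adjusted p = 0.016, lost with centring, with upper quartile scaling and without the second EtOH DMSO library). Of 7 genes of LXR and sterol efflux, 4 passed the filter on low values and 0 passed the limma test in this comparison (0 also at an unadjusted p under 0.05). Of 9 fatty acid synthesis genes, which SREBP proteins also regulate, 7 fell (5 to 7 with 1 library left out), with *Acss2*, the cytosolic acetyl-CoA synthetase, going from 24.6 and 27.1 to 9.56 and 11.5 FPKM (log2 difference -1.22, adjusted p = 0.00147) and the desaturase gene *Scd2* falling by 0.89 (adjusted p = 0.00406). *Mid1ip1*, which encodes an activator of acetyl-CoA carboxylase, went the other way, from 27.1 and 31.4 to 122 and 134 FPKM (4.28-fold on the FPKM + 1 scale, adjusted p = 3.56e-04).

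**Figure D3:**
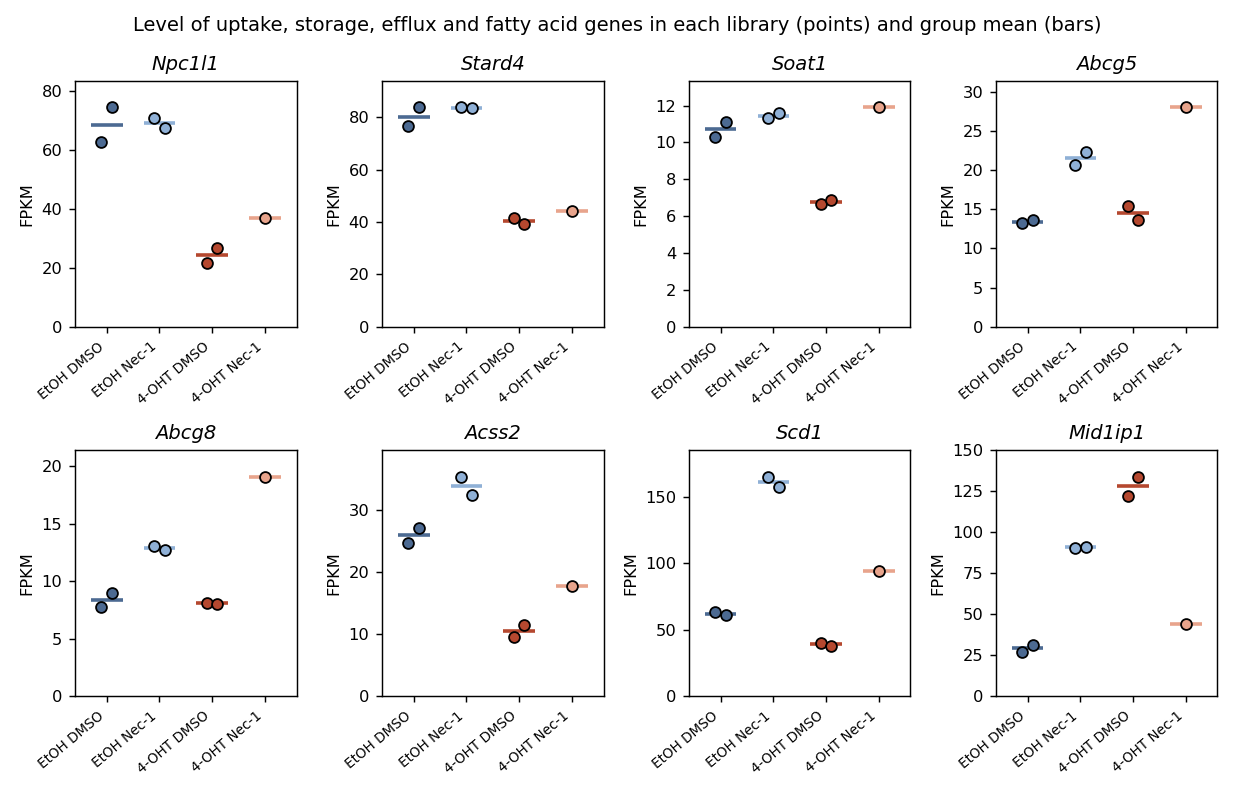
Level (FPKM, linear axis from 0) of 8 neighbouring genes of sterol uptake, storage, efflux and fatty acid synthesis in each library (points) with group means (bars). *Npc1l1* and *Stard4* are low in all 3 libraries labelled 4-OHT, whereas *Abcg5* and *Abcg8* are higher in the libraries with Nec-1 (20.7 to 28.0 and 12.7 to 19.1 FPKM) than in those with DMSO.

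Nec-1 in EtOH organoids served to show what the inhibitor does to these genes without 4-OHT. This comparison shares its EtOH DMSO libraries with the one above, so their values are only set side by side. No member was called (0 of 7), and 0.220% of all genes were (28 by limma with adjustment, 1689 at an unadjusted p under 0.05). At an unadjusted p under 0.05 the members were 2 in number. *Lss* was at 16.9 and 19.4 FPKM in EtOH DMSO and 23.2 and 22.4 in EtOH Nec-1, a log2 difference of 0.32 (95% interval 0.064 to 0.57, limma adjusted p = 0.315). *Idi1* was at 107 and 101 against 132 and 118 FPKM, a log2 difference of 0.26 (95% interval 0.035 to 0.48, limma adjusted p = 0.337). Both EtOH Nec-1 libraries were above both EtOH DMSO libraries for these genes. The share of all genes that separate in this way was not counted, for these or for the members below.

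The control gene *Srebf2* had a value of the other sign, at 30.6 and 30.8 FPKM with Nec-1 against 33.4 and 39.9 without (log2 difference -0.25, 95% interval -0.51 to 0.015, limma adjusted p = 0.392). *Insig1*, at 183 and 190 FPKM with Nec-1 and 181 and 189 without, overlapped between the groups (log2 difference 0.012, 95% interval -0.20 to 0.23). *Hmgcs1* at 138 and 153 FPKM, *Fdft1* at 67.1 and 58.8 and *Sqle* at 52.6 and 52.5 lay above the EtOH DMSO libraries without passing. Their log2 differences were 0.12 (95% interval -0.097 to 0.33), 0.15 (-0.13 to 0.44) and 0.10 (-0.10 to 0.31), so a rise of more than 0.44 is outside the interval of each.

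Among the other lists, *Scd1*, which makes monounsaturated fatty acids, rose with Nec-1 in EtOH organoids from 62.9 and 61.0 to 165 and 157 FPKM (log2 difference 1.36, limma adjusted p = 0.00578). *Mid1ip1* rose from 27.1 and 31.4 to 90.5 and 91.2 FPKM (log2 difference 1.61, adjusted p = 0.00788). Without either EtOH Nec-1 library neither call held (adjusted p = 0.104 to 0.123), nor did they without the first EtOH DMSO library (adjusted p = 0.063 for both), and that of *Scd1* was lost without the second one as well (adjusted p = 0.0723). None of the 14 other sterol enzymes passed (0 with adjustment by limma, 3 at an unadjusted p under 0.05). The efflux pair *Abcg5* and *Abcg8*, which LXR is known to control, had log2 differences of 0.64 (adjusted p = 0.11) and 0.57 (adjusted p = 0.134). The 4 stem cell markers summed to 36.8 to 40.4 FPKM in EtOH DMSO and 25.6 to 27.5 in EtOH Nec-1, and the 8 proliferation genes to 197 to 210 and 171 to 177. Paneth cell markers summed to 1500 to 1720 and 1810 to 1940, enteroendocrine markers to 152 to 163 and 169 to 181. Goblet cell markers overlapped, at 1080 to 1150 and 1130 to 1170. Summed FPKM of the 7 enterocyte markers was 1250 to 1320 in EtOH DMSO and 989 to 990 in EtOH Nec-1. *Apoa4* fell from 96.2 and 92.6 to 32.2 and 27.9 FPKM (log2 difference -1.62, limma adjusted p = 0.0102), *Apoa1* (-0.82), *Fabp1* (-0.36) and *Fabp2* (-0.27) did not pass, and *Alpi* and *Sis* had log2 differences of 0.029 and -0.085. The part of these markers in the members' values was not tested.

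Nec-1 in organoids labelled 4-OHT rested on 1 library, so this comparison has no replicate check and no test, and it shares the 4-OHT DMSO libraries with the first one. A gene was called when it lay at least 0.5 log2 units from each 4-OHT DMSO library. By this rule 0 of 7 members were called, beside 2.76% of genes called above and 4.92% called below. At any distance 5 members lay above both 4-OHT DMSO libraries, as did 25.5% of all genes, and 1 member lay below both, as did 49.3%.

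*Lss* came nearest to the rule, at 13.3 FPKM with Nec-1 against 9.42 and 8.51 with DMSO (log2 difference 0.52, and 0.46 and 0.59 against the single libraries). *Idi1* was at 58.3 FPKM against 43.9 and 43.2 (log2 difference 0.41), and *Insig1* at 108 against 80.7 and 89.2 (log2 difference 0.35). These levels were above those with DMSO and below every EtOH library. *Hmgcs1* was at 130 FPKM against 104 and 110 (log2 difference 0.28), next to the lower EtOH DMSO library at 131, and *Sqle* at 36.5 against 30.8 and 33.8 (log2 difference 0.17).

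*Srebf2*, at 21.6 FPKM, lay between the 4-OHT DMSO libraries at 22.4 and 21.5 (log2 difference -0.02, and 0.094 with centring). *Fdft1* was the exception in direction, at 34.6 FPKM with Nec-1 against 43.7 and 50.8 with DMSO (log2 difference -0.44, and -0.54 and -0.33 against the single libraries). It was the lowest *Fdft1* value of all 7 libraries. Centring each library on its median moved every difference in this comparison by 0.11. With it 6 members lay above both DMSO libraries, as did 42.3% of all genes, and 2 of them (*Idi1* and *Lss*) were called above, as were 4.16% of all genes.

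**Figure D4:**
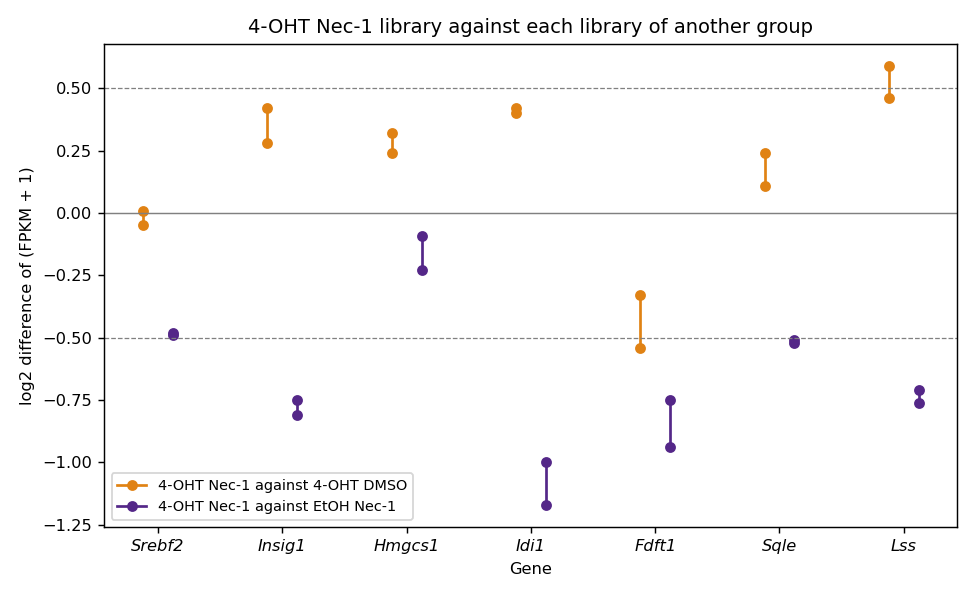
Log2 difference of (FPKM + 1) (vertical axis) between the 4-OHT Nec-1 library and each single library of 4-OHT DMSO or of EtOH Nec-1 (joined points) for the 7 genes (horizontal axis), with dashed lines at 0.5 and -0.5. Against 4-OHT DMSO the points of 5 genes lie above 0 and those of *Fdft1* below it, and against EtOH Nec-1 all points lie below 0.

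Around the members, 12 of 14 other sterol enzymes lay above both 4-OHT DMSO libraries at any distance, as did 25.5% of all genes. There was 1 below both, as were 49.3% of all genes, and 0 were called. *Npc1l1* was at 36.8 FPKM against 21.6 and 26.7 (log2 difference 0.60, and 0.45 against the nearer library). *Soat1* was at 11.9 FPKM against 6.67 and 6.86 (log2 difference 0.73), a level just above the 10.3 to 11.6 FPKM of the EtOH libraries. *Abcg8* was at 19.1 against 8.11 and 8.04 FPKM (log2 difference 1.15) and *Abcg5* at 28.0 against 15.4 and 13.6 (log2 difference 0.91), both above every other library. *Scd1* was at 94.3 against 39.9 and 37.7 FPKM (log2 difference 1.26) and *Scd2* also was called above (log2 difference 0.77), whereas *Mid1ip1* was called below, at 43.9 against 122 and 134 FPKM (log2 difference -1.52). Summed FPKM of the enterocyte markers was 1170 in 4-OHT Nec-1 and 994 to 1050 in 4-OHT DMSO, and that of the stem cell markers was 7.63 and 15.4 to 22.4. Paneth cell markers summed to 3770 and 4100 to 4180, goblet cell markers to 1330 and 1480 to 1650, and proliferation genes to 143 and 164 to 188. Enteroendocrine markers, at 345 and 299 to 358, overlapped. Of the enterocyte markers *Fabp1* was called above, at 647 against 328 and 394 FPKM, as was *Alpi*, at 54.2 against 22.3 and 30.3, while *Apoa1*, at 179 against 293 and 291, and *Apoa4*, at 38.0 against 104 and 90.7, were called below. The part of these markers in the members' values was not tested.

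Between the libraries with Nec-1, the library labelled 4-OHT was below both EtOH libraries for all 7 members, as for 38.0% of all genes. By the same rule of 0.5 log2 units from each library, 5 of 7 members were called below, beside 8.61% of all genes, and none above, beside 15.9%. There was 1 library in the 4-OHT group and no test. *Idi1* was at 58.3 against 132 and 118 FPKM (log2 difference -1.08), *Insig1* at 108 against 183 and 190 (log2 difference -0.78), and *Lss* at 13.3 against 23.2 and 22.4 (log2 difference -0.74). *Fdft1*, whose difference between 4-OHT DMSO and EtOH DMSO had not passed, was here at 34.6 against 67.1 and 58.8 FPKM (log2 difference -0.84), and *Sqle* at 36.5 against 52.6 and 52.5 (log2 difference -0.51, just past the limit). *Srebf2*, at 21.6 against 30.6 and 30.8 FPKM, came just short of it (log2 difference -0.48). *Hmgcs1* had the smallest difference, at 130 against 138 and 153 FPKM (log2 difference -0.16).

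Whether Nec-1 moved the members differently in the organoids labelled 4-OHT and in the EtOH organoids was tested as a difference of the Nec-1 effects. In this fit the lone 4-OHT Nec-1 library is assumed to vary like the other groups. No member passed (0 of 7), as against 0.0551% of all genes (7 by limma with adjustment, 1059 at an unadjusted p under 0.05). For *Fdft1*, the only member with an unadjusted p under 0.05, the difference was -0.59 (standard error 0.18, 95% interval -1.04 to -0.14, limma adjusted p = 0.444). *Insig1* had 0.34 (95% interval -0.0041 to 0.67, limma adjusted p = 0.604), and the other 5 members had differences of 0.069 to 0.23. *Mid1ip1* was the only gene of the neighbouring lists and cell type markers that passed, with -3.13 (limma adjusted p = 0.0117), and it did not pass when any 1 of the 4 EtOH libraries was left out (adjusted p = 0.0721 to 0.121).

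Over the 7 libraries the members varied alike to different degrees. The correlation of each member's log2 value with the mean of the other 6, given as a description, was 0.99 for *Insig1*, *Idi1* and *Sqle*, 0.94 for *Lss*, 0.84 for *Srebf2* and *Hmgcs1* and 0.69 for *Fdft1*. These 7 points share treatments within groups, may share cultures, and are mostly one step between EtOH and 4-OHT. The mean z-score of the members with EtOH was 0.59 and 0.62 (DMSO) and 0.86 and 0.84 (Nec-1), and with 4-OHT it was -1.20 and -1.01 (DMSO) and -0.71 (Nec-1). The libraries thus fell into a high set of 4 and a low set of 3.

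Many genes outside the route followed this step. Of 5579 genes with a standard deviation of at least 0.3 log2 units over the libraries, 773 (13.9%) had a correlation of at least 0.9 with the members' mean. The nearest was *Sult1b1*, a cytosolic sulfotransferase gene, at 0.9984, and the tenth was *Stag2*, a cohesin gene, at 0.9939. Between them stood *Mknk2*, *Gm11613*, *Eci1*, *0610005C13Rik*, *Bnip3l*, *Bco2*, *Akr1c14* and *Gm7413*, none of them on a list used here. Among listed genes *Mvd* was 24th and *Stard4* 42nd of the 5579, both with a correlation of 0.99, and *Npc1l1* was 137th with 0.98. Opposite values were found for *Scap* (-0.97, 4737th of the 5579), *Lipa* (-0.95, 4334th), *Birc5* (-0.94, 4162nd) and *Pdss2* (-0.94, 4149th). *Tmem97*, a sterol-responsive membrane protein gene (-0.98), *Pmvk* (-0.88) and *Mvk* (-0.75) also had opposite values. Their standard deviation was under 0.3 log2 units, so they are not among the 5579. The share of all genes with such opposite values was not counted.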

How the data were processed

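Bulk RNA-seq of 7 libraries in 4 groups was used; 2 CUT&Tag samples were not analysed here. The authors deposited FPKM for each gene, keyed by Ensembl identifier, and the submitters' processing notes name HISAT2 2.1.0, StringTie 1.3.3b and the build mm10. Of 54838 genes, 54723 matched a symbol. No column was left unmapped (0), and 2 columns of one table repeated libraries of other tables to within rounding. A test on counts had been planned for files of counts; because the values are FPKM, limma 3.58.1 in R 4.3.3 was fitted with a mean-variance trend to log2(FPKM + 1), which understates changes of low genes. The fit held the 12702 genes that reached 1 FPKM in 2 or more libraries, and all 7 libraries entered with 1 mean per group (3 residual degrees of freedom), with Benjamini-Hochberg adjustment over all genes tested and a threshold of 0.05. The script was tested on simulated data. Comparisons with the single 4-OHT Nec-1 library have no test.

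Other tables were made with Python 3.11.15, numpy 2.4.6, pandas 2.3.3 and matplotlib 3.10.9. Members, lists and tests were chosen with earlier results of these data known. Named genes are the 7 members, *Mettl3*, cell type markers, at most the 3 called genes of each list with the largest difference, and the 10 genes whose pattern is most like the members. Added after their values were seen were *Npc1l1*, *Scarb1*, counts of 5 or fewer that were spelled out, and the neighbours set beside a member (*Insig2*, *Mvk*, *Pmvk*, *Hsd17b7*, *Dhcr7*, *Fdps*, *Cyp51*, *Sc5d*, *Tmem97*, and *Abcg5* and *Abcg8* in EtOH organoids). Replicate correlations across genes were 0.984 (EtOH with DMSO), 0.989 (EtOH with Nec-1) and 0.965 (4-OHT with DMSO). Alternatives were scaling, filter, pseudocount, trend, replicate block, each library left out and a fold criterion. Some genes of the pathway are not reported here.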

Additional observations from a re-analysis of the deposited data

Results flagged for a closer look

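Among the members, the neighbouring lists and the cell type markers, 10 genes were flagged by a rule on direction. Their libraries with Nec-1 lay on one side of those with DMSO in EtOH organoids and on the other side in organoids labelled 4-OHT. The latter side rests on 1 library that is assumed to vary like the other groups. The share of all genes that meet this rule was not counted, so the number flagged shows no excess. Of the members the rule flagged *Fdft1*, above both EtOH DMSO libraries in both EtOH Nec-1 libraries and below both 4-OHT DMSO libraries in 4-OHT Nec-1. Its difference of the Nec-1 effects was -0.59 and did not pass (limma adjusted p = 0.444). *Mid1ip1* rose with Nec-1 in EtOH organoids and was lower with Nec-1 in organoids labelled 4-OHT, and this difference of -3.13 passed (limma adjusted p = 0.0117), but not when any 1 of the 4 EtOH libraries was left out (adjusted p = 0.0721 to 0.121). The differences of the other 8 did not pass (limma adjusted p = 0.112 to 0.76). They were 1.21 for *Fabp1*, 0.24 for *Scarb1*, -1.02 for *Mmp7*, -0.58 for *Krt20*, -0.47 for *Ang4*, -0.41 for *Itln1*, -0.35 for *Clca1* and -0.23 for *Lyz1*.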

How the results depend on the processing

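Genes called numbered 5237 between 4-OHT DMSO and EtOH DMSO and 1364 with an unadjusted p under 0.05 and at least 1 log2 unit, a criterion that left 2 members lower in place of 6. For EtOH Nec-1 the 28 calls became 43 with upper quartile scaling, 8 without the filter, 87 with only the 4 libraries compared, 90 with that criterion and 9 to 79 with a library left out. The 7 calls for the difference of Nec-1 effects became 219 without the filter, 3 with at least 1 FPKM in every library and 1 to 323 with a library left out. Genes called between 4-OHT Nec-1 and 4-OHT DMSO (975) became 640 with at least 1 FPKM in every library, 1496 with a pseudocount of 0.1, 242 at 1 log2 unit and 1831 to 2041 with a DMSO library left out. Against EtOH Nec-1, 1 log2 unit gave 750 genes in place of 3118 and 1 member in place of 5. Among members and named genes the log2 differences that changed sign were that of 4-OHT Nec-1 against 4-OHT DMSO for *Srebf2* (from -0.02 to 0.094 with centring, 0.11 with upper quartile scaling and 0.0077 without the first DMSO library) and those of EtOH Nec-1 for *Insig1* (-0.021 without the first EtOH DMSO library, -0.017 without the second EtOH Nec-1 library, up to 0.046 without another) and *Npc1l1* (-0.11 and -0.02 without the first library of either group, up to 0.14 without another). The cause of these changes was not tested.

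Deviations between replicates correlated between groups at -0.04, 0.01 and -0.01, so no pairing by replicate number showed in them. These correlations across genes cannot exclude shared cultures or mice, on which the sources are silent. With a replicate block 4697 genes were called between 4-OHT DMSO and EtOH DMSO, 19 with Nec-1 in EtOH organoids and 4 for the difference of Nec-1 effects, and 5 members were lower, with *Hmgcs1* at an adjusted p of 0.0545. The unknown depth limits what can be said of low genes such as *Mettl3*.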
